A study of Ovis aries with 7 samples.

Results

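The genes SOCS3 and TNFRSF9 were followed through the tail fat of 2 sheep breeds, the thin-tailed Zel and the fat-tailed Ghezel. Every row of the deposited expression tables that overlapped ENSOARG00000000175 (SOCS3, chromosome 11, 52828414 to 52829103) or ENSOARG00000010196 (TNFRSF9, chromosome 12, 43560756 to 43579756) was taken. This gave 17 of the 261693 rows of all tables, 7 for SOCS3 and 10 for TNFRSF9. The libraries come from 4 Zel and 3 Ghezel male lambs with no treatment, weaned at 90 days, fed one diet for 120 days and slaughtered at 7 months, with 1 poly(A)-enriched library per lamb. Libraries are numbered within their breed. Both genes stand in the study's list of genes that differ most between these same lambs, so their direction here is not independent evidence of a difference. Positions are those of the deposited tables, for which the labels name the build Oar_v3.1 and the paper the sheep genome v4.0.

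SOCS3 is a suppressor of cytokine signaling. Its transcription is induced by interleukin-6 type cytokines and leptin through the JAK-STAT pathway, and the protein binds the receptor and the JAK kinases and shuts the signal off. In adipocytes it is also known as an inhibitor of insulin and leptin signaling. TNFRSF9 belongs to the tumor necrosis factor receptors. It is known from activated T cells and natural killer cells, where its ligand TNFSF9 makes it recruit TRAF proteins and activate NF-kB.

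The values are FPKM, fragments per kilobase of transcript and per 1000000 mapped fragments. The deposited interval of an FPKM implies a number of fragments behind it, which summed to between 7308112 and 7827375 per library. Zel 3 and Zel 4 had the shortest assembled loci of the series (median span 963 and 1409 bases) and Ghezel 3 the next (3641 bases), against 5400 to 8935 bases in the other libraries. None of the 35 cell type markers and none of the 81 genes of the IL-6 and JAK-STAT, TNF receptor and insulin signaling lists could be placed, since the tables carry no gene symbols. The tissue label was therefore not checked against markers, and the partners of the 2 genes are not analysed here.

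The gene model of SOCS3 covers 690 bases. This equals 230 triplets with no remainder, and the assembled transcript ran well past it. In 6 libraries a single assembled row of 2322 to 2995 bases held the whole model, which made up 23.0% to 29.7% of that row. Zel 4 was the exception. There the reference gene itself was the only overlapping row, with 1.99 implied fragments, and a separate assembled row of 873 bases (chromosome 11, 52829857 to 52830729) started 753 bases after the model. That row held 164 implied fragments, or 18.8 per 100 bases against 0.289 per 100 bases of the model. It lies inside the rows of Zel 1, Zel 2, Zel 3 and Ghezel 1, and all but its last few bases lie inside those of Ghezel 2 and Ghezel 3. In Zel 4 nearly all fragments of the region stood outside the gene model.

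TNFRSF9 was assembled in Zel 1, Ghezel 1 and Ghezel 2, in rows of 20662, 22271 and 21886 bases that held the full model of 19001 bases. In Zel 2, Zel 3, Zel 4 and Ghezel 3 the reference gene was the row found. A reference row is a gene that was not assembled in that library. Between 78.0% and 80.6% of the reference rows of a library were at 0, and those above 0 had a median of 4 to 8 implied fragments, against 58.0 to 97.1 for assembled rows. Ghezel 1 held 2 further rows inside TNFRSF9, of 717 and 540 bases, with an FPKM of 3.12 and 2.59 on 26.9 and 14.0 implied fragments. In Ghezel 2 a row of 39180 bases with an FPKM of 284 reached 283 bases into TNFRSF9. Only 0.722% of that row lies in the gene, and the other libraries show the same strongly covered locus ending at least 21968 bases before it. Zel 2 had a separate assembled row of 1140 bases that began 312 bases after the gene model, with 16.0 implied fragments and an FPKM of 0.941.

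**Figure D1:**
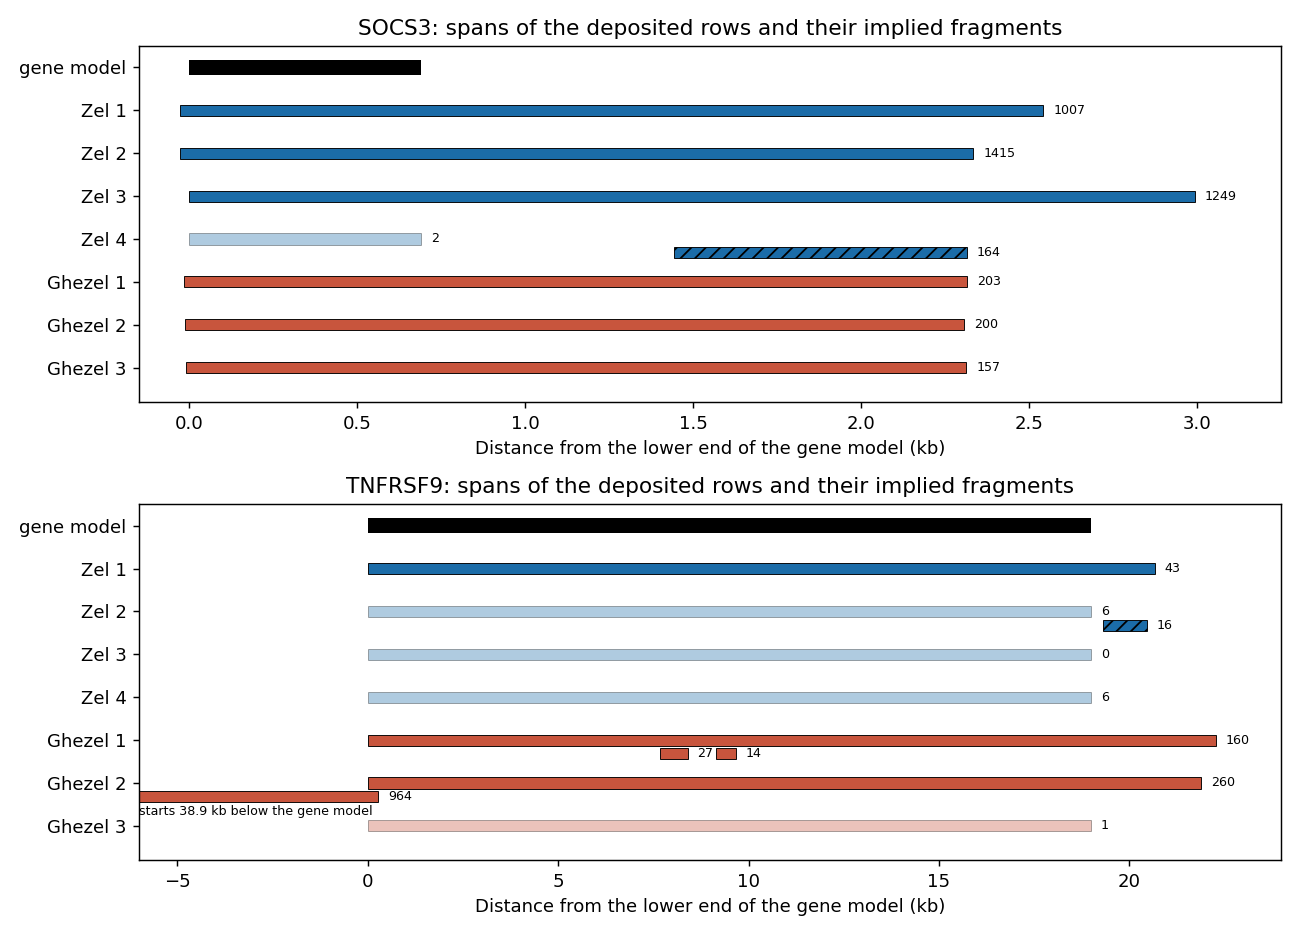
Spans of the deposited rows at SOCS3 (top) and TNFRSF9 (bottom) in kb from the lower end of the gene model (black), Zel in blue and Ghezel in red, with the implied fragments of each row as a number. Pale bars are reference rows, full bars assembled rows and hatched bars assembled rows past the gene model; in Zel 4 the model of SOCS3 and a row of 164 fragments are separate.

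SOCS3 was far more abundant in 3 of the 4 Zel libraries than in any Ghezel library. In Zel 4 its gene model row, with 1.99 implied fragments, was the lowest of all. With the row past the model added, Zel 4 lay within the Ghezel range in implied fragments and above it in summed FPKM. Zel 1 to Zel 4 had FPKM values of 49.6, 104, 59.0 and 0.440, with deposited intervals of 46.4 to 52.7, 98.1 to 109, 55.6 to 62.3 and 0 to 1.06. The Ghezel libraries lay close together at 6.74, 6.39 and 7.35. Zel 1, Zel 2 and Zel 3 stood above all 3 Ghezel libraries and Zel 4 below all 3, so the breeds overlapped. Zel averaged 53.1 ± 42.3 (SD, n = 4) and Ghezel 6.83 ± 0.486 (SD, n = 3), a ratio of 8.25 after scaling for library composition (5.32 without Zel 2). On the log2(FPKM + 1) scale, which understates changes at low values, the log2 fold change was 1.76 (standard error 1.34, 95% interval -1.28 to 4.81). It did not pass the test across all loci (limma, adjusted p = 0.771), and the exact permutation test of the breed labels gave p = 0.314 (two-sided, smallest possible p 0.0286). Without Zel 2 the log2 fold change was 1.05 (limma, adjusted p = 0.711), and without Zel 4 it was 3.17 (limma, unadjusted p = 0.000360, adjusted p = 0.972). Blocking on the replicate number of the labels, where Zel 4 has no partner, is bound to give the same estimate as leaving out Zel 4. It gave 3.17 (limma, adjusted p = 0.792). In bulk tissue, fewer cells of a type and less RNA per cell cannot be told apart.

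TNFRSF9 was low in every Zel library and in Ghezel 3, and higher in Ghezel 1 and Ghezel 2. Zel 1 to Zel 4 had FPKM values of 0.874, 0.272, 0 and 0.249. Ghezel 1 to Ghezel 3 had 5.27, 3.61 and 0.0438. Ghezel 1 and Ghezel 2 were above all 4 Zel libraries, while Ghezel 3 was below Zel 1, Zel 2 and Zel 4. Zel averaged 0.349 ± 0.371 (SD, n = 4) and Ghezel 2.97 ± 2.67 (SD, n = 3), which is 9.38 times higher after scaling (17.3 times without Zel 1 and 6.17 times without Ghezel 1). The log2 fold change of Zel against Ghezel was -1.3 (standard error 0.66, 95% interval -2.79 to 0.20), and it did not pass the test (limma, adjusted p = 0.771; exact permutation test, two-sided, p = 0.171). Without Ghezel 1 the log2 fold change was -0.81 (limma, adjusted p = 0.998), and without Ghezel 3 it was -2.11 (limma, unadjusted p = 0.00260, adjusted p = 0.509). When every overlapping row was summed, the value of Ghezel 2 became 288 through the neighbouring locus and the log2 fold change -3.61 (adjusted p = 0.771).

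Across the 8178 loci tested, limma called 0 (0%) by the thresholds of 0.05 for the adjusted p and 1.1 for the log2 fold change, and 299 (3.66%) had an unadjusted p under 0.05, 120 higher and 179 lower in Zel. Among the 8173 other loci with a value in all 7 libraries, the breeds did not overlap at 4.53%, with every Zel library above every Ghezel library at 1.97% and below at 2.56%. SOCS3 and TNFRSF9 were left out of this set, and by the FPKM values above the breeds overlapped at both. With FPKM summed over its widest assembled span, chosen after the rows were seen, SOCS3 did not overlap (lowest Zel 14.7, highest Ghezel 7.35).

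**Figure D2:**
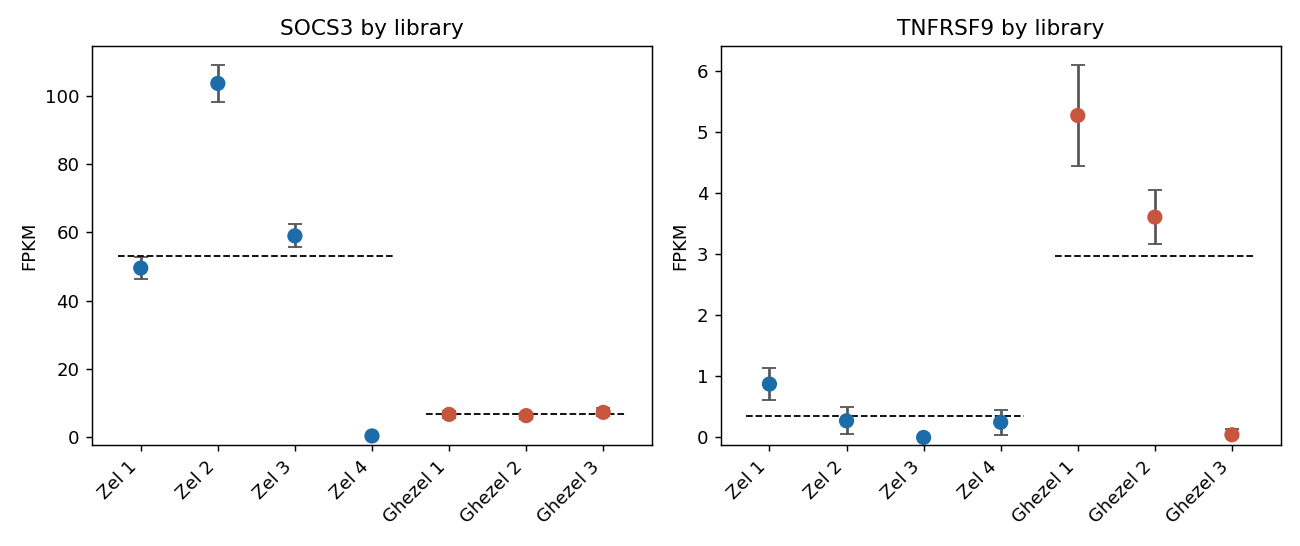
FPKM of SOCS3 (left) and TNFRSF9 (right) in each library on linear axes of different range, Zel in blue and Ghezel in red, with the deposited confidence interval as bars and the breed mean as a dashed line. For SOCS3, Zel 4 (0.440) lies below the Ghezel libraries (6.39 to 7.35); for TNFRSF9, Ghezel 3 (0.0438) lies among the Zel libraries.

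The same FPKM values were also ranked among the other loci of each library. SOCS3 was above 83.6%, 91.6% and 84.9% of the other tested loci in Zel 1 to Zel 3, above 18.3% in Zel 4 and above 42.2% to 46.0% in the Ghezel libraries. TNFRSF9 exceeded 35.5% and 32.1% of them in Ghezel 1 and Ghezel 2, and 0% to 15.5% in the other 5 libraries. Ranks do not compare directly between libraries. TNFRSF9 was above 15.5% of the loci in Zel 4 at a scaled FPKM of 0.238, but above 4.67% in Zel 1 at 0.788. The SD of SOCS3 on the log2 scale was 2.86 among the Zel libraries, larger than at 97.9% of the loci (median 0.92 over the loci), and 0.076 among the Ghezel libraries, larger than at 3.21% (median 0.49). The SD of TNFRSF9 was 0.35 among the Zel libraries, larger than at 8.85% of the loci, and 1.42 among the Ghezel libraries, larger than at 93.1%. Both SDs depend on the rows and the scale. Over the widest assembled span of each gene, the SD of SOCS3 among the Zel libraries was 1.24 in FPKM and 1.44 in fragments, since Zel 4 no longer rests on the gene model alone. All Zel values of TNFRSF9 were under 1 FPKM, where adding 1 narrows the log2 scale, and in fragments over that span their SD was 1.20.

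Implied fragments do not depend on the length assigned to a row. In every overlapping row they left Zel 4 the lowest for SOCS3, at 0.255 per 1000000 of the library. Its position changed when the row past the gene model was counted too. When rows lying at least 50% inside the widest assembled span of the gene were counted, a choice made after the rows had been seen, SOCS3 had 129, 163 and 194 implied fragments per 1000000 of the library in Zel 1, Zel 3 and Zel 2. Zel 4 had 21.3 (95% exact Poisson interval 18.2 to 24.8), and Ghezel 1 to Ghezel 3 had 27.4, 26.7 and 20.2 (23.8 to 31.4, 23.1 to 30.6 and 17.1 to 23.6). By this measure Zel 4 lay within the range of the Ghezel libraries, at 0.859 of their mean, while the other Zel libraries were at 5.20 to 7.83 times that mean. The log2 fold change was 1.94 (standard error 0.75, limma, adjusted p = 0.742; exact permutation test, two-sided, p = 0.114). Summed as FPKM, the same rows gave Zel 4 a value of 14.7, above the Ghezel libraries, and a log2 fold change of 2.62 (limma, adjusted p = 0.770; exact permutation test, two-sided, p = 0.0571). The FPKM of the short row in Zel 4 is relative to its own 873 bases, so it is not a level of the full transcript. The FPKM per implied fragment also differed by up to 2.29 times among the 6 SOCS3 rows that held the gene model, from 0.0319 in Ghezel 2 to 0.0732 in Zel 2, so the ratios of FPKM between libraries are not those of fragments. The Poisson intervals cover counting error only.

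The same count for TNFRSF9, per 1000000 implied fragments, was 5.51, 3.01, 0 and 0.768 in the 4 Zel libraries. It was 27.1, 34.7 and 0.128 in Ghezel 1 to Ghezel 3. The row past the gene model thus raised Zel 2 from 0.821, and Ghezel 1 and Ghezel 2 remained the highest libraries. The value of Ghezel 3 rests on 1 implied fragment, and those of Zel 2 and Zel 4 in the gene model on 6 each. A count of 0 in Zel 3 allows up to 0.391 (3 fragments; the upper end of its two-sided Poisson interval is 0.480), so at this depth Zel 3 and Ghezel 3 could not be told apart. The log2 fold change was -2.0 (standard error 1.31, limma, adjusted p = 0.742; exact permutation test, two-sided, p = 0.257).

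**Figure D3:**
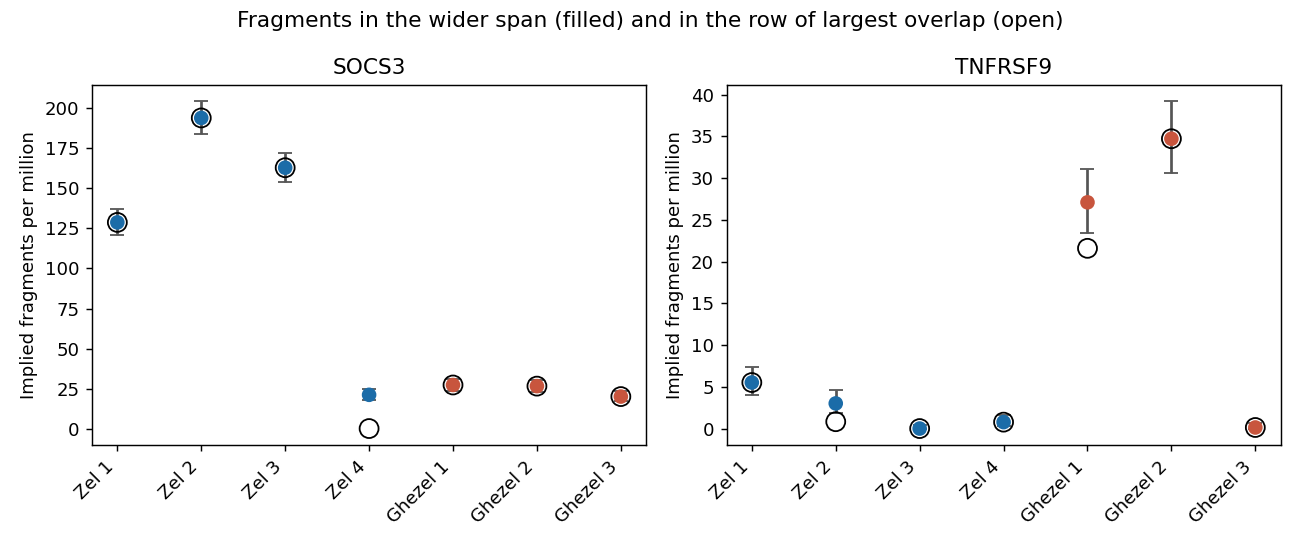
Implied fragments per 1000000 of the library for SOCS3 (left) and TNFRSF9 (right) in each library, Zel in blue and Ghezel in red. Filled points with 95% exact Poisson bars count rows in the wider span and open circles the row of largest overlap alone; in Zel 4 SOCS3 moves from 0.255 to 21.3, into the range of the Ghezel libraries (20.2 to 27.4).

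The log2 values of the genes were also subtracted within each library. Their opposite directions in these lambs were known when this contrast was set up, so it describes that pattern and is not independent support for it. SOCS3 exceeded TNFRSF9 by 4.68, 6.48, 5.99 and 0.20 in the order Zel 1 to Zel 4. The 3 Ghezel libraries gave 0.30, 0.69 and 2.83. Zel 1, Zel 2 and Zel 3 stood above all Ghezel libraries, and Zel 4 below all of them. The breed means differed by 3.06 (4.34 ± 2.86 in Zel, SD, n = 4, and 1.28 ± 1.36 in Ghezel, SD, n = 3). The difference did not pass the exact permutation test of the breed labels (two-sided, p = 0.171). With FPKM summed over the wider span, the value of Zel 4 was 3.61 and that of Ghezel 1 was -0.63. The breeds then did not overlap, with a difference of 4.01 (exact permutation test, two-sided, p = 0.0286, the smallest that the design allows). With scaled fragments of the same rows the difference was 3.94 (exact permutation test, p = 0.0571). Both choices were made after the rows had been seen, so these p-values are descriptions, and the first rests on the FPKM of the short row in Zel 4.

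The deposited tables follow a pair of naming styles, and TNFRSF9 moved with the style among the Ghezel libraries. One style holds Zel 2, Ghezel 1 and Ghezel 2, and the other holds Zel 1, Zel 3, Zel 4 and Ghezel 3. The sources used here do not say what the styles stand for. SOCS3 was higher in Zel within both, with a log2 difference of 3.87 in the first (1 against 2 libraries) and 1.12 in the second (3 against 1). TNFRSF9 was lower in Zel within the first, by a log2 difference of -2.11, but Ghezel 3 lay below the mean of the other style's Zel libraries, with a log2 difference of 0.33. With the naming style as a term in the fit, the log2 fold change was 2.42 for SOCS3 and -0.82 for TNFRSF9 (limma, adjusted p = 0.999 for both). The part of the naming style and of the short assembled loci in these values was not tested. With the median span of assembled loci as a covariate the log2 fold changes were 2.79 and -0.79 (adjusted p = 0.997 for both).

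**Figure D4:**
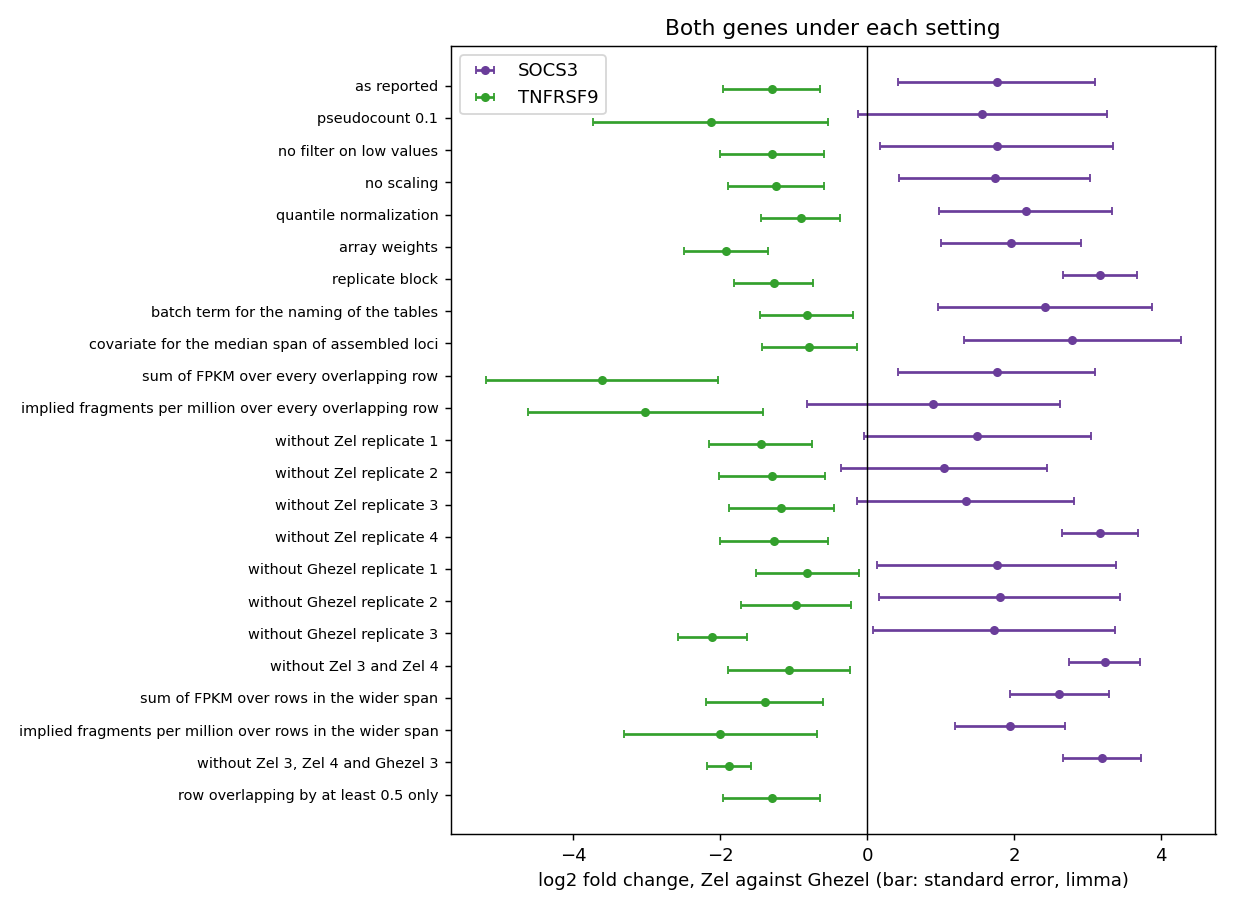
Log2 fold change of Zel against Ghezel for SOCS3 (purple) and TNFRSF9 (green) as reported and under each alternative, with the standard error from limma as bars. SOCS3 stays above 0, from 0.90 to 3.23, and TNFRSF9 below 0, from -3.61 to -0.79, and no setting has an adjusted p under 0.308.

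Around the genes, the tables held 10 to 12 further rows per library within 100 kb of SOCS3 and 4 to 8 within 100 kb of TNFRSF9. The nearest locus matched in all libraries on the higher side of SOCS3 was ENSOARG00000026385, at 52833764 to 52836011 of chromosome 11. It was almost silent, with FPKM values from 0 to 0.219 over the 7 libraries. The nearest on the lower side, at 52680020 to 52780193, reached 15.3 in Zel 1 and lay between 0 and 1.38 elsewhere. Neither followed the pattern of SOCS3. On the lower side of TNFRSF9, the strongly covered locus that runs into the gene in Ghezel 2 was at 324, 145, 838 and 1022 FPKM in Zel and at 328, 284 and 373 FPKM in Ghezel. This locus was singled out after its values were seen. The nearest loci matched in all libraries, ENSOARG00000025451 on the lower side (89696 bases away) and ENSOARG00000010265 on the higher side (63004 bases away), were listed at 0 in all 7 libraries. In the RefSeq table of the assembly ARS-UI_Ramb_v3.0, TNFRSF9 lies between PARK7 and UTS2 with no overlapping gene. SOCS3 follows PGS1 there and overlaps 2 long non-coding RNA genes, LOC121820651 and LOC114116952. The sources used here do not say whether fragments were assigned by strand, so fragments of SOCS3 and of such partners cannot be told apart.

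The 5 tested loci whose values were most like those of SOCS3 over the 7 libraries had Pearson correlations of 0.92 to 0.98 with it, as a description without a test. The first, at 14131602 to 14174014 of chromosome 14, measured 12.3, 13.6, 16.1 and 0 FPKM in Zel against 1.69, 3.11 and 3.75 FPKM in Ghezel. Of the 5, ENSOARG00000002851 alone carried a reference ID, with 2.60, 8.76, 2.84 and 0 FPKM in Zel against 0.932, 0.261 and 0.613 in Ghezel. Each of these 5 loci had its lowest or second lowest value in Zel 4, like SOCS3. The loci most like TNFRSF9 had correlations of 0.98 to 0.99. They included ENSOARG00000007307 at 4.67 and 3.34 FPKM in Ghezel 1 and Ghezel 2 and 1.1 to 2.27 elsewhere, and ENSOARG00000020011, at 12.3 and 7.56 against 0.141 to 2.17. A further one was ENSOARG00000008620, which is LTF, the gene of the secreted iron-binding protein lactoferrin. It measured 8.61, 3.01, 1.11 and 0.494 FPKM in Zel against 128, 125 and 0.345 FPKM in Ghezel. These loci were chosen from all tested loci by their likeness over the same 7 libraries, and the points share the differences in assembly between libraries.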

How the data were processed

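Tail adipose RNA of 4 Zel and 3 Ghezel lambs was sequenced. The paper's methods name FastQC v0.11.5 and Trimmomatic v0.35 for read quality, Bowtie v2.2.4 and TopHat v2.1.1 for mapping, and Cufflinks v2.2.1, with which the authors assembled each library. The deposited tables give FPKM, which the authors' software scales by transcript length and mapped fragments, and the bounds of its confidence interval. No read counts were used.

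A bound was taken to lie 2 standard deviations from the FPKM, so implied fragments are (2 × FPKM / (upper bound - FPKM)) squared; this is a lower bound where assignment between isoforms widens the interval. The FPKM of a gene is that of the row whose overlap is the largest share of the longer of row and gene. It was fitted with all loci matched by position in the 7 libraries (overlap at least 0.8 of the longer span, 22094 loci) that had a mean FPKM of at least 1, divided by median-ratio size factors from the 4829 loci with an FPKM of at least 1 in every library. Log2(FPKM + 1) was compared with limma 3.58.1 (trend, Benjamini-Hochberg) in R 4.3.3. Single values were compared by exact permutation, two-sided. The genes were kept in the fit whatever their mean.

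The members, lists and tests were chosen with earlier results of these data known. Named were the 2 genes, the nearest matched loci, the 5 loci most like each gene and any placed member of the lists. The deviations of libraries with the same replicate number from their breed means correlated with 0.258, 0.141 and 0.302, all over 0.1, so the numbers 1 to 3 were used as a block in an alternative fit. Correlations between libraries with different numbers were not computed, so these values do not show that the numbers pair the lambs. The labels tie the numbers to no shared day or litter, and the paper appears to number the libraries of a breed in another order, so the pairs depend on the numbering used. Replicates are separate lambs. The other alternatives concerned the pseudocount, filter, scaling, weights, naming style, span, rows used, measure and libraries left out.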

Additional observations from a re-analysis of the deposited data

Results flagged for a closer look

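In implied fragments of every overlapping row, scaled to 1000000 per library, TNFRSF9 stood apart in Zel 1 among the Zel libraries. It had 5.51 there against 0.821, 0 and 0.768 in Zel 2 to Zel 4. The gap to the next library was 0.851 of the range of the breed, over Dixon's critical value for 4 samples. The gap was below this value on the FPKM scale (0.689) and over the wider span (0.454). Chance passes this value in about 1 of 20 groups. Several gaps were examined, over both genes, several measures and the difference of the genes, and no other was over the critical value. In Zel 4, a row that does not overlap the gene model of SOCS3 but lies in the span of the transcript assembled in the other libraries held 164 implied fragments. In Zel 2, a row of this kind past TNFRSF9 held 16.0 implied fragments.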

How the results depend on the processing

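SOCS3 was higher and TNFRSF9 lower in Zel under all alternatives that gave a value, 21 for SOCS3 and 22 for TNFRSF9, and neither passed an adjusted p under 0.05 in any. The adjusted p ranged from 0.308 to 1 for both genes. Leaving out 1 library gave a log2 fold change of 1.05 (without Zel 2) to 3.17 (without Zel 4) for SOCS3 and of -2.11 (without Ghezel 3) to -0.81 (without Ghezel 1) for TNFRSF9. With the replicate number of the labels as a block it was 3.17 and -1.27, bound to equal the estimates without Zel 4, and no call changed. With scaled implied fragments of every overlapping row it was 0.90 and -3.02, with array weights 1.96 and -1.92, with quantile normalization 2.16 and -0.90, with a pseudocount of 0.1 1.57 and -2.13, and without Zel 3 and Zel 4 3.23 and -1.07. The difference of SOCS3 and TNFRSF9 within a library ranged from 2.35 (without Zel 2) to 4.44 (without Zel 4) when 1 library was left out. It passed the test in 1 of the 6 alternatives that kept all 7 libraries, the FPKM summed over the wider span (4.01). The other 8 left out libraries and could not reach p under 0.05, and 2 of them were at the smallest p they allow. No locus was called in most alternatives, but 9 were without Ghezel 3, 1 without Zel 3 and Zel 4, and 5 without Zel 3, Zel 4 and Ghezel 3, a choice made after the data were seen. A minimum overlap of 0.5 left SOCS3 in Zel 4 alone, so it gave no value there. Counts of 0 to 6 implied fragments limit what can be said of TNFRSF9 in Zel 2, Zel 3, Zel 4 and Ghezel 3.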
